A study of Mus musculus with 23 samples.

Results

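Endothelial cells line the blood vessels of the brain, and mural cells, the pericytes and smooth muscle cells, wrap around them. The 8 genes described here mark these cells: Pecam1, Cldn5, Flt1 and Emcn in the endothelium, and Pdgfrb, Rgs5, Abcc9 and Vtn in mural cells. They were taken by name, and every probe set that the authors' normalized table assigns to one of them was used. That gave 18 of the 45101 probe sets on the array, 7 for the endothelial genes and 11 for the mural genes. Flt1 and Rgs5 had 4 probe sets each, Abcc9 had 3, Pdgfrb and Vtn had 2 each, and Pecam1, Cldn5 and Emcn had 1 each.

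RNA from mouse striatum was hybridised to 23 Affymetrix arrays, 1 per mouse. WT controls, littermates of matched age and sex per the design text, were compared with dKO mice, labelled Ezh1; Ezh2 Camk Cre. In these mice the histone methyltransferases Ezh1 and Ezh2 are targeted for deletion. The groups were 3 WT and 3 dKO mice at 6 weeks, 4 WT and 3 dKO mice at 3 months, and 4 WT and 6 dKO mice at 6 months. By its name the Cre is driven from a Camk promoter, a kind of driver used to delete genes in forebrain neurons, so vessel cells are not the cells it is used to target. Which allele of each gene was deleted where is not given in the labels. Either Ezh1 or Ezh2 can serve as the enzyme of Polycomb repressive complex 2, which methylates histone H3 and keeps developmental genes silent. Whole tissue was measured, so fewer vessel cells and less RNA per vessel cell cannot be told apart in any value below.

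Brain endothelium forms the blood-brain barrier: its cells are sealed by tight junctions, carry nutrients on dedicated transporters and are kept in this state by pericytes, astrocytes and a shared basement membrane. Endothelial cells release PDGF-B, which recruits pericytes through the receptor Pdgfrb, and they read VEGF through its receptors, among them Flt1. Pericytes and smooth muscle cells set vessel tone through G-protein-coupled receptors and potassium channels, the pathways in which Rgs5 and Abcc9 act.

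Values are log2 values made with RMA and centred per probe set near its median, so that a value of 0 is the centre of that probe set over the arrays. Levels were lost in the centring: whether vessel or striatal marker genes are present at all, and which member is the more abundant, could not be read from these values. A difference of 1 is 2-fold. Differences are given as dKO minus WT with their standard error, from limma fitted over all arrays with a mean for each of the 6 groups. A probe set is called where the two-sided p, adjusted by Benjamini-Hochberg over 45037 probe sets, is under 0.05.

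The targeted gene was checked first. The Ezh1 probe set 1449023_a_at read 2.07 to 2.28 in the 6-week WT arrays, whereas dKO arrays of that age read -0.37, -0.62 and 1.47. The library labelled dKO replicate 3 at 6 weeks thus lay between the WT and the other dKO arrays, nearer to WT. Whether it is mislabelled was not tested. At 3 and 6 months all dKO arrays read 0 or below and all WT arrays 1.39 or above. The Ezh2 probe set 1416544_at read lower in dKO by -0.40 ± 0.20, -0.45 ± 0.18 and -0.43 ± 0.15 at the 3 ages and was not called at any of them (adjusted p = 0.62, 0.684 and 0.0721), and where its probes lie relative to the deleted part is not given in the labels. The arrays also split in Xist, the RNA of the inactive X chromosome of female cells, which read -7.11 to -5.82 on 11 arrays and -0.21 to 1.08 on 12. At 6 weeks only dKO replicate 1 had high Xist. At 3 months WT replicates 1 and 2 and dKO replicates 1 and 2 had it, and at 6 months it was high on 3 of 4 WT and 4 of 6 dKO arrays. The classes are thus not balanced between genotypes, and 6-month differences are also given within the high-Xist arrays. Choroid plexus markers had a median of 3.68 in WT replicate 1 and 3.77 in dKO replicate 2 at 6 months, both low-Xist arrays, against -0.62 to 0.38 in the other arrays of that age.

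The promoters of the 3 genes that were called at 6 months, Emcn, Rgs5 and Abcc9, are shown because Polycomb complexes are known to bind promoters rich in CpG, the dinucleotide CG. RefSeq start sites on GRCm38.p6 were available for 6 of the 8 genes. Each window holds 250 bases before the start and 50 after it, read on the gene's strand, and capitals mark each CG.
Emcn: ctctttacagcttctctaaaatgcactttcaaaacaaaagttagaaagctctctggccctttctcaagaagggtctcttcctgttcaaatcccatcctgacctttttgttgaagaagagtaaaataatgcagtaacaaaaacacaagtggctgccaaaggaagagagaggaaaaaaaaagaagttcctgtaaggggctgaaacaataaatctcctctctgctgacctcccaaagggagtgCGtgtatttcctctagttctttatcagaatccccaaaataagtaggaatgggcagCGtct
Rgs5: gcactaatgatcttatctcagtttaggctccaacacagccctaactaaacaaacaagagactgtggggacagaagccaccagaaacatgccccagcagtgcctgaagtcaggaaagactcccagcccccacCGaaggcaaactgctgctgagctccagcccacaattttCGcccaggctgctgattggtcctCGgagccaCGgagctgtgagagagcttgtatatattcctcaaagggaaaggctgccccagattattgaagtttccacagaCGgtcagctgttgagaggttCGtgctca
Abcc9: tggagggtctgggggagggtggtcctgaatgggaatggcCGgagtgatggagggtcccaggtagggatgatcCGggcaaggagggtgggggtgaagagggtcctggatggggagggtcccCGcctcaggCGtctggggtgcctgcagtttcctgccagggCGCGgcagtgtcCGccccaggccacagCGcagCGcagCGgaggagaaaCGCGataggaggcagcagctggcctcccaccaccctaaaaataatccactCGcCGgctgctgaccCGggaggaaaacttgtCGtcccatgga
The windows lie at chr3:137340828-137341127 on the plus strand, chr1:169655251-169655550 on the plus strand and chr6:142702225-142702524 on the minus strand. The Emcn window holds 2 CG, the Rgs5 window 6 and the Abcc9 window 16, where the median over 32851 such RefSeq windows is 7 and 94.6% hold at least 1. Flt1 had 29, Cldn5 12 and Vtn 9. The genes called at 6 months thus had the lowest counts of the 6 (Emcn and Rgs5) as well as a count above the median (Abcc9). The motif AGGAAG, searched on both strands, occurs in the Emcn and Flt1 windows with 2 matches each and in none of the other 4, and 35.4% of all windows hold it. A match describes the letters of the window and is not a measured site.

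**Figure D1:**
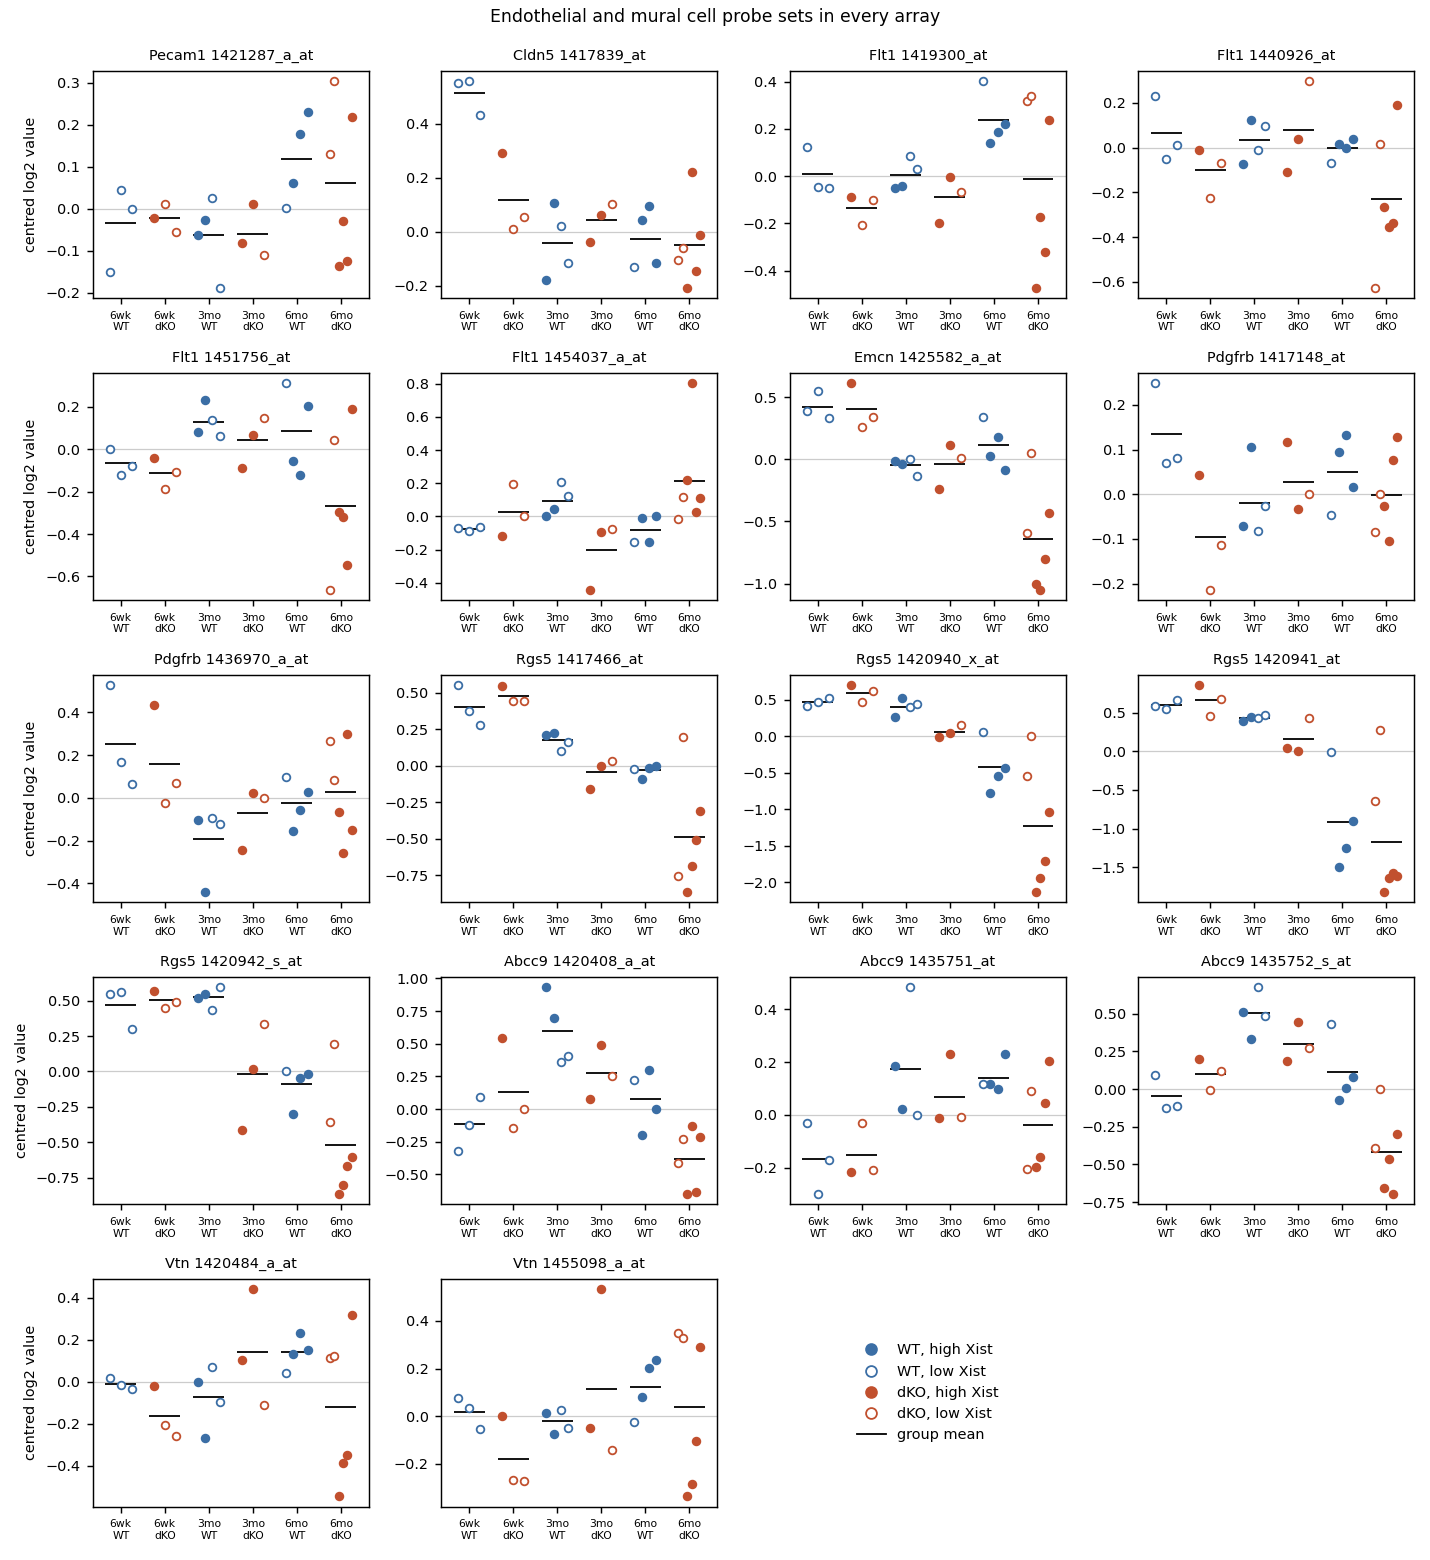
Log2 RMA values (centred per probe set) of the 18 probe sets in each array, by age and genotype; open points are low-Xist arrays, filled points high-Xist arrays, and lines are group means. Emcn falls below WT in 5 of 6 dKO arrays at 6 months, and Rgs5 1420941_at is near 0 in the low-Xist WT array of that age and -1.50 to -0.90 in the others.

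At 6 months, Emcn was the member with the lowest adjusted p. Emcn encodes endomucin, a sialic acid-rich glycoprotein on the surface of capillary and venous endothelium. In WT its values were 0.34, 0.03, 0.18 and -0.08, and in dKO the lowest was -1.05, the median -0.69 and the highest 0.05. The other 5 dKO arrays lay at -0.43 or below, under every WT array, and dKO replicate 2, at 0.05, lay among the WT arrays. The mean fell by 0.75 ± 0.15 (adjusted p = 0.00208), from 0.12 ± 0.19 (SD, n = 4) in WT to -0.64 ± 0.41 (SD, n = 6) in dKO, a 1.69-fold difference. At 6 weeks and 3 months the differences were -0.02 ± 0.19 and 0.01 ± 0.18, with 95% intervals of -0.42 to 0.39 and -0.37 to 0.39.

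Abcc9 encodes the sulfonylurea receptor SUR2, the regulatory subunit of the ATP-sensitive potassium channel of mural cells. Its probe set 1435752_s_at read 0.43, -0.07, 0.00 and 0.08 in 6-month WT mice, and -0.70 at the lowest, -0.42 in the median and 0.00 at the highest in dKO mice. Again dKO replicate 2 was the only dKO array inside the WT range. The value fell by 0.53 ± 0.12 (adjusted p = 0.0044), a 1.44-fold difference. The second probe set, 1420408_a_at, read 0.22, -0.20, 0.30 and 0.00 in WT and -0.65 to -0.13 in dKO, with a median of -0.32. The only overlap was that dKO replicate 4 read above WT replicate 2, and the fall of 0.46 ± 0.15 was called (adjusted p = 0.0431). The third, 1435751_at, read lower in dKO by -0.18 ± 0.10 and was not called (adjusted p = 0.264).

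Rgs5 encodes a regulator of G-protein signalling that speeds the shut-off of G proteins, and is among the most used markers of brain pericytes. Of its 4 probe sets 1 was called. For 1417466_at the 4 WT arrays at 6 months read -0.02, -0.09, -0.01 and 0.00, and the dKO arrays -0.86 at the lowest, -0.60 in the median and 0.20 at the highest. In 5 of 6 dKO arrays the value lay below all WT arrays, and dKO replicate 2 lay above them. The fall was 0.46 ± 0.13 (adjusted p = 0.0264), a 1.37-fold difference. For 1420940_x_at the WT arrays read 0.06, -0.78, -0.54 and -0.43, and the dKO arrays -2.13 at the lowest, -1.37 in the median and 0.00 at the highest. Its difference, -0.80 ± 0.28, was the largest in size of any member and was not called (adjusted p = 0.0604). The x in this name marks a set whose probes can also match unrelated transcripts. For 1420942_s_at the difference was -0.43 ± 0.16 (adjusted p = 0.0732), and for 1420941_at it was -0.26 ± 0.31 (adjusted p = 0.662). The last of these differed between the Xist classes in both genotypes: it read -0.01 in the low-Xist WT array and -1.50, -1.25 and -0.90 in the high-Xist WT arrays, and -0.65 and 0.27 against -1.82 to -1.57 among dKO mice.

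Flt1, the VEGF receptor that binds the ligand tightly and signals weakly, was not called at 6 months in any of 4 probe sets, and these did not point one way. The differences were -0.35 ± 0.13 for 1451756_at (adjusted p = 0.071), -0.25 ± 0.13 for 1419300_at (adjusted p = 0.214) and -0.23 ± 0.12 for 1440926_at (adjusted p = 0.223), but 0.29 ± 0.12 for 1454037_a_at (adjusted p = 0.112). In the last, dKO replicate 4 read 0.80 and the other dKO arrays -0.01 to 0.22.

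The remaining members gave no call at 6 months, and their intervals bound the change that these arrays allow. For Pecam1, the adhesion molecule CD31 of endothelial junctions, the difference was -0.06 ± 0.08 with an interval of -0.23 to 0.12. Cldn5, the main claudin of the tight junctions of brain endothelium, gave -0.02 ± 0.08 with an interval of -0.20 to 0.15. For Pdgfrb, the pericyte receptor of PDGF-B, the 2 probe sets gave -0.05 ± 0.07 and 0.05 ± 0.12, with intervals of -0.20 to 0.09 and -0.20 to 0.30. Vtn, the secreted matrix protein vitronectin that brain pericytes make and endothelial integrins bind, gave -0.26 ± 0.14 and -0.08 ± 0.14, with intervals of -0.55 to 0.02 and -0.37 to 0.20. For each of these probe sets at most 3 of 6 dKO arrays lay beyond the WT arrays on one side.

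In all, 4 of 18 member probe sets, in 3 of 8 genes, were called lower at 6 months and 0 higher, where 7.14% of all probe sets were called lower and 6.73% higher. At an unadjusted p under 0.05, 7 were lower and 1 higher, where 26.7% of all probe sets passed in either direction. The differences were negative for 16 of 18, with a median of -0.25 against 0.00 over all probe sets. Probe sets of one gene share their transcripts, so 16 of 18 is not 16 separate observations. No member had its genotypes fully apart at 6 months, where 4.69% of all probe sets had every dKO array below every WT array. The count of 4 rests on single arrays: it became 7 without dKO replicate 2 and 2 without WT replicate 1, 3 or 4 or without dKO replicate 3. Emcn and Abcc9 1435752_s_at were the 2 probe sets called with each of these arrays left out.

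**Figure D2:**
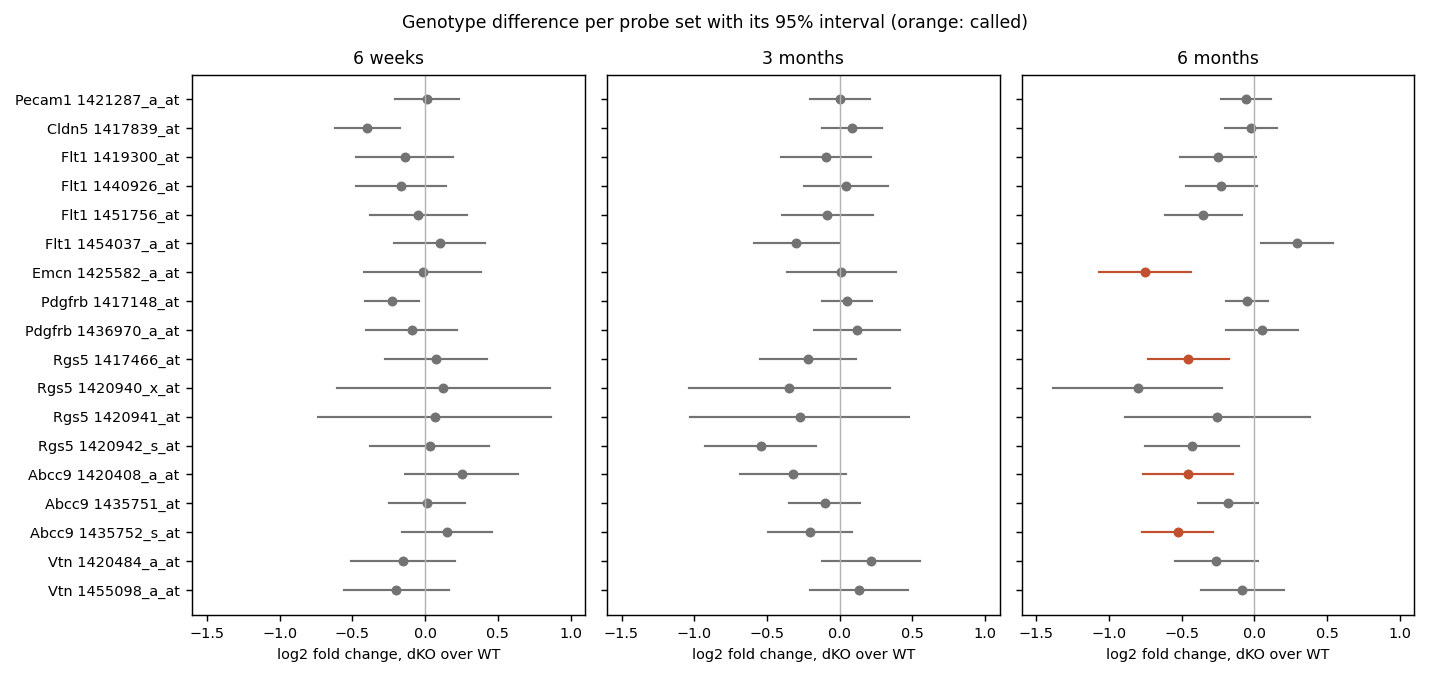
Difference dKO minus WT (log2 scale) of each probe set at the 3 ages, with 95% intervals; orange points passed the adjusted threshold. The 4 called points are Emcn, 2 of 3 Abcc9 probe sets and 1 of 4 Rgs5 probe sets, all at 6 months.

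Within the high-Xist arrays of 6 months, 3 WT and 4 dKO, 7 member probe sets were called lower and 0 higher, where 8.64% of all probe sets were called lower. All 4 Rgs5 probe sets were among them: 1420940_x_at fell by 1.12 ± 0.17 (adjusted p = 0.000199), 1420942_s_at by 0.61 ± 0.13, 1417466_at by 0.56 ± 0.10 and 1420941_at by 0.45 ± 0.13. Emcn fell by 0.86 ± 0.13 (adjusted p = 0.000178), Abcc9 1435752_s_at by 0.53 ± 0.10 and Flt1 1419300_at by 0.36 ± 0.12 (adjusted p = 0.0362). Abcc9 1420408_a_at, at -0.44 ± 0.18, was no longer called (adjusted p = 0.115). In the low-Xist arrays, 1 WT and 2 dKO, the differences were -0.61 for Emcn, -0.63 and -0.55 for the 2 called Abcc9 sets, and -0.33 to -0.08 for Rgs5, with no member called. Pecam1 and both Vtn sets differed in sign between the classes: 0.21, 0.07 and 0.36 in the low-Xist arrays against -0.17, -0.41 and -0.28 in the high-Xist arrays. Cldn5 and Pdgfrb 1417148_at also did, with values of 0.05 and 0.00 against -0.04 and -0.06. This split was made after the values were seen, and whether the genotype effect differs between the classes was not tested. The high-Xist set also leaves out dKO replicate 2, whose removal alone gave 7 called lower. It leaves out both arrays with high choroid plexus markers as well, so these differences between the sets cannot be told apart from Xist.

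**Figure D3:**
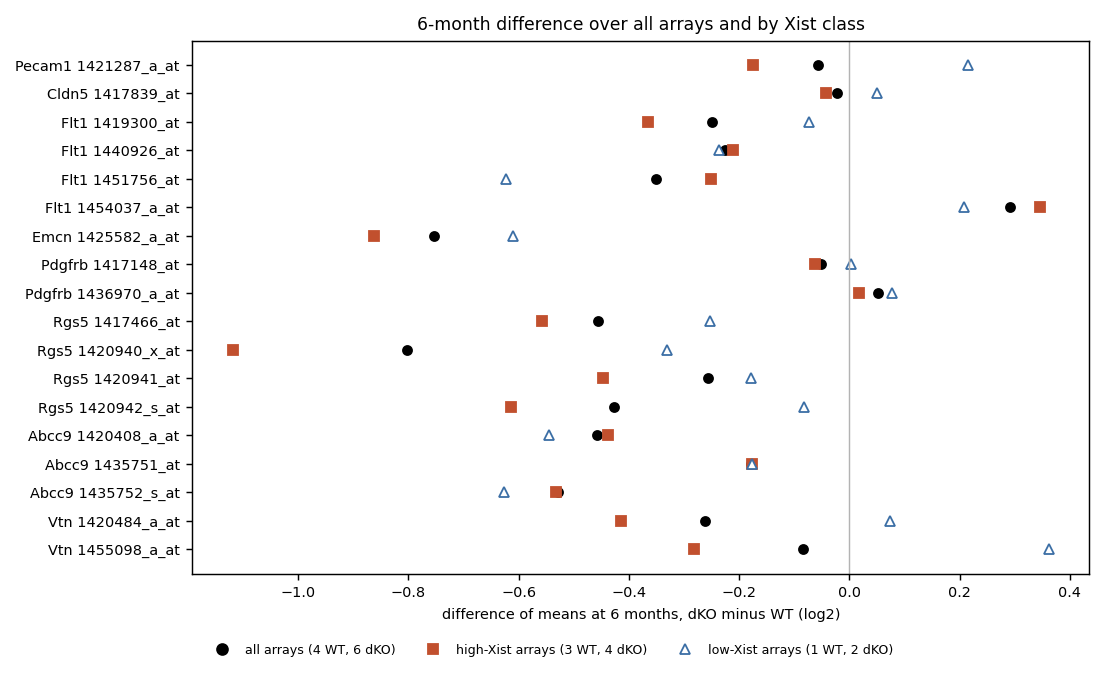
Difference dKO minus WT at 6 months (log2 scale) over all arrays (circles), the 3 WT and 4 dKO high-Xist arrays (squares) and the 1 WT and 2 dKO low-Xist arrays (triangles). Emcn and Abcc9 1435752_s_at lie below 0 in all 3, and the squares of Rgs5 lie below its triangles.

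At 6 weeks and at 3 months no member probe set was called in either direction by limma. At 6 weeks 0.102% of all probe sets were called higher and 0.0866% lower, and 3756 of all had an unadjusted p under 0.05, among them 2 members, both lower. The nearest to a call was Cldn5, which read 0.55, 0.56 and 0.43 in WT and 0.29, 0.01 and 0.05 in dKO. All dKO arrays lay below all WT arrays, and the difference was -0.40 ± 0.11 (adjusted p = 0.171). The second was Pdgfrb 1417148_at, at -0.23 ± 0.09 (adjusted p = 0.425). With Flt1 1419300_at, 3 members had every dKO array below every WT array at 6 weeks, as had 9.95% of all probe sets.

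At 3 months 0.171% of all probe sets were called higher and 0.0155% lower, and 2733 had an unadjusted p under 0.05. Rgs5 1420942_s_at read 0.52, 0.54, 0.43 and 0.59 in WT and -0.41, 0.01 and 0.34 in dKO, a difference of -0.54 ± 0.18 (adjusted p = 0.468). The other Rgs5 sets gave -0.22, -0.35 and -0.28. In 3 of the 4 Rgs5 sets every dKO array lay below every WT array, and with Flt1 1454037_a_at, at -0.30 ± 0.14 (adjusted p = 0.809), this held for 4 members, where 4.57% of all probe sets behaved so. None reached the threshold, so the data at this age give the values and no call. The signal difference between the 3' and 5' probes of beta-actin, a sign of RNA length, also differed at this age. It was -0.188 to -0.077 in WT and -0.075 to 0.108 in dKO, without overlap. For Gapdh it was -0.071 to -0.002 and -0.008 to 0.146, with overlap. The part of the actin difference in the member values was not tested.

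Whether the genotype difference changed with age was tested directly. No member passed for the change from 6 weeks to 6 months, where 0.575% of all probe sets did, or for the change from 3 months to 6 months, where 0.939% did. At an unadjusted p under 0.05, 5 and 3 members passed, where 12.8% and 13.1% of all probe sets did, so the 3 are near the background. For Emcn the difference moved by -0.74 from 6 weeks (adjusted p = 0.200) and by -0.76 from 3 months (adjusted p = 0.138). For Abcc9 1435752_s_at it moved by -0.68 from 6 weeks (adjusted p = 0.123), and for Flt1 1454037_a_at by 0.59 from 3 months (adjusted p = 0.141). The calls at 6 months alone therefore do not show that the genotype difference depends on age.

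The members were also compared between ages within a genotype, in comparisons that share arrays with those above. In WT, 3 of 18 probe sets were lower at 6 months than at 6 weeks and 0 were higher. Of all probe sets 14.7% were called in either direction, so the 3 are near the background. Cldn5 fell by 0.54 ± 0.10 (adjusted p = 0.00143), Rgs5 1420941_at by 1.51 ± 0.36 (adjusted p = 0.00842) and Rgs5 1420942_s_at by 0.56 ± 0.18 (adjusted p = 0.0447). All 3 WT arrays at 6 weeks had low Xist and 3 of 4 at 6 months had high Xist. At 3 months Rgs5 1420941_at read 0.39 to 0.47 in WT arrays of both Xist classes. The signal difference between the 3' and 5' probes of Gapdh, a sign of RNA length, was -0.16 to -0.10 in WT at 6 weeks. At 6 months it was -0.04 to 0.08. With it as a covariate 0 WT members were called. The 2 ranges do not overlap, so RNA length and age cannot be told apart in this comparison. In the same WT comparison 4 of 6 thalamic or pallidal neuron markers were higher (median 1.23) and 3 of 7 oligodendrocyte markers lower (median -0.47), and their part in the result was not tested.

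In dKO, 7 probe sets were lower at 6 months than at 6 weeks and 0 higher, where 29.6% of all were called in either direction. All 4 Rgs5 sets fell, 1420941_at by 1.83 ± 0.34, 1420940_x_at by 1.82 ± 0.31, 1420942_s_at by 1.02 ± 0.17 and 1417466_at by 0.96 ± 0.15. Emcn fell by 1.04 ± 0.17 (adjusted p = 9.86e-05) and the 2 Abcc9 sets 1435752_s_at and 1420408_a_at by 0.52 ± 0.13 and 0.51 ± 0.16. One of the 6-week arrays in this comparison is the library labelled dKO replicate 3, and 6 or 7 members were called with any 1 array left out. The Gapdh signal difference was -0.149 to -0.050 in dKO at 6 weeks and -0.027 to 0.064 at 6 months. These ranges do not overlap, so RNA length and age cannot be told apart in dKO either. At 6 weeks only dKO replicate 1 had high Xist, and at 6 months 4 dKO arrays had it and 2 did not. All 7 oligodendrocyte markers (median -1.03) and 8 of 12 medium spiny neuron markers (median -0.74) were lower in the same comparison, and their part in it was not tested.

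The course in WT was not a steady one for every member. From 6 weeks to 3 months, a comparison added after the values were seen, Cldn5 fell by 0.56 ± 0.10, and Abcc9 1420408_a_at and 1435752_s_at rose by 0.71 ± 0.18 and 0.55 ± 0.14, where 7.26% of all probe sets were called. From 3 to 6 months both Abcc9 sets fell again, by 0.52 ± 0.16 and 0.39 ± 0.13, and Rgs5 1420941_at and 1420942_s_at fell by 1.35 ± 0.34 and 0.61 ± 0.17. These 4 of 18 are near the 16.9% of all probe sets called in this step. The other 2 Rgs5 sets were not called in either step: 1417466_at gave -0.23 and -0.21, and 1420940_x_at -0.06 and -0.83. No test compared the 2 steps. The Gapdh signal difference was -0.161 to -0.098 in WT at 6 weeks and -0.071 to -0.002 at 3 months. These ranges do not overlap, so RNA length and age cannot be told apart in the step from 6 weeks to 3 months.

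Other genes of the vessel wall were followed in lists of known genes at 6 months, each gene by whichever of its probe sets varied most (largest SD) over the arrays. Of all 20694 genes taken this way, 8.71% were called higher and 8.64% lower. The 107 measured vascular genes besides the 8 had 13 higher and 17 lower at 6 months, and 0 in either direction at 6 weeks and at 3 months, where 15 had an unadjusted p under 0.05 at each age. Their median difference at 6 months was -0.04.

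Of 21 other endothelial genes 2 were higher and 4 lower (median -0.16). Ptprb, the phosphatase that restrains the receptor Tie2, fell by 0.57 ± 0.17, Adgrl4, an adhesion receptor of endothelium, by 0.48 ± 0.09, and Tie1, the orphan partner of Tie2, by 0.41 ± 0.11. Icam2, an adhesion molecule, fell by 0.39 ± 0.11, and it is named here because the count is small, as is Clec14a, which rose by 0.39 ± 0.10. Egfl7, a matrix protein secreted by endothelium, rose by 0.57 ± 0.09. Other probe sets of Egfl7 gave 0.28 to 0.46, one of Ptprb gave 0.05, not called, and the second of Clec14a 0.00, not called.

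Among 18 blood-brain barrier genes 3 were higher and 5 lower (median -0.14). Itm2a fell by 0.70 ± 0.17, the tight junction protein Ocln by 0.61 ± 0.20 and the thyroid hormone and organic anion transporter Slco1c1 by 0.58 ± 0.17. Tjp1, which links tight junctions to actin, and Cldn12, another claudin, fell by 0.32 ± 0.10 and 0.34 ± 0.09. Tfrc, the transferrin receptor, rose by 0.61 ± 0.18, the lipid transporter Mfsd2a by 0.56 ± 0.11 and the amino acid transporter Slc7a5 by 0.27 ± 0.09. The second Ocln probe set read 0.03 and the 2 others of Tfrc -0.01 and 0.04, none of them called, so these genes changed in 1 probe set only, and the second of Cldn12 gave -0.23, not called. Tjp1, Cldn12, Mfsd2a and Slc7a5 were named after their values were seen.

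Of 18 other mural cell genes 3 were higher and 1 lower (median -0.02). Heyl, a transcription factor downstream of Notch, rose by 1.25 ± 0.18 (adjusted p = 8.67e-05), and its 2 other probe sets rose by 0.60 and 0.58. Tbx18, a transcription factor of pericytes and smooth muscle, rose by 0.91 ± 0.14, and Notch3, the Notch receptor of mural cells, by 0.32 ± 0.09 (its second probe set gave 0.24, not called). Kcnj8, the pore subunit Kir6.1 with which SUR2 forms the mural potassium channel, fell by 0.39 ± 0.09 (adjusted p = 0.00721). In the list of that channel family Kcnj8 was the 1 of 3 called. The called mural genes therefore went both ways: Kcnj8 and some probe sets of Rgs5 and Abcc9 had calls downward, and Heyl, Tbx18 and Notch3 upward. Pdgfrb, Vtn and most of the 18 other mural genes had none. Which cells of the tissue gave these changes was not measured.

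Of 23 genes of vascular growth factor signalling 1 was higher and 5 lower (median -0.01). Acvrl1, the endothelial BMP receptor ALK1, fell by 1.51 ± 0.21 (adjusted p = 3.92e-05), and its second probe set by 0.67 ± 0.13. S1pr1, a sphingosine-1-phosphate receptor of endothelium that astrocytes also express, fell by 0.59 ± 0.09, and Nrp1, the VEGF co-receptor that neurons also use for semaphorins, by 0.58 ± 0.16. Vegfa, a ligand of Flt1, fell by 0.24 ± 0.08 and the peptide ligand Apln by 0.29 ± 0.08, both named after their values were seen. Of the 3 other Nrp1 probe sets 1 was called, at -0.59, and the others gave -0.44 and 0.06, and the second of Vegfa gave -0.05, not called. The chemokine Cxcl12 rose by 0.82 ± 0.25, but its 2 other probe sets gave -0.28 and 0.05, not called. Of 5 vitronectin partners Itgb5, an integrin subunit that binds vitronectin, fell by 0.50 ± 0.15 in 1 probe set, with -0.25 to -0.17 in the 3 others.

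Of 9 genes of activated or leaky endothelium 4 were higher and 1 lower (median 0.52). Plvap, the protein of fenestral diaphragms, rose by 0.87 ± 0.22 (adjusted p = 0.00957), Apold1 by 0.60 ± 0.19, the leukocyte adhesion molecule Icam1 by 0.52 ± 0.13 and, named after its value was seen, the cholesterol hydroxylase Ch25h by 0.38 ± 0.10. Vcam1, another leukocyte adhesion molecule, fell by 0.68 ± 0.21 and in a second probe set by 0.62, while its 2 others gave -0.05 and 0.09, not called. The 11 basement membrane genes had 0 calls, with 3 at an unadjusted p under 0.05 (median 0.01). Of 11 other RGS genes 4 were lower and 0 higher (median -0.24): Rgs4 fell by 1.37 ± 0.31, Rgs20 by 1.02 ± 0.13, Rgs2 by 0.87 ± 0.19 and Rgs8 by 0.47 ± 0.13, all of them genes that neurons express. One further probe set each of Rgs20 and Rgs2 gave -0.04 and 0.01, not called.

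**Figure D4:**
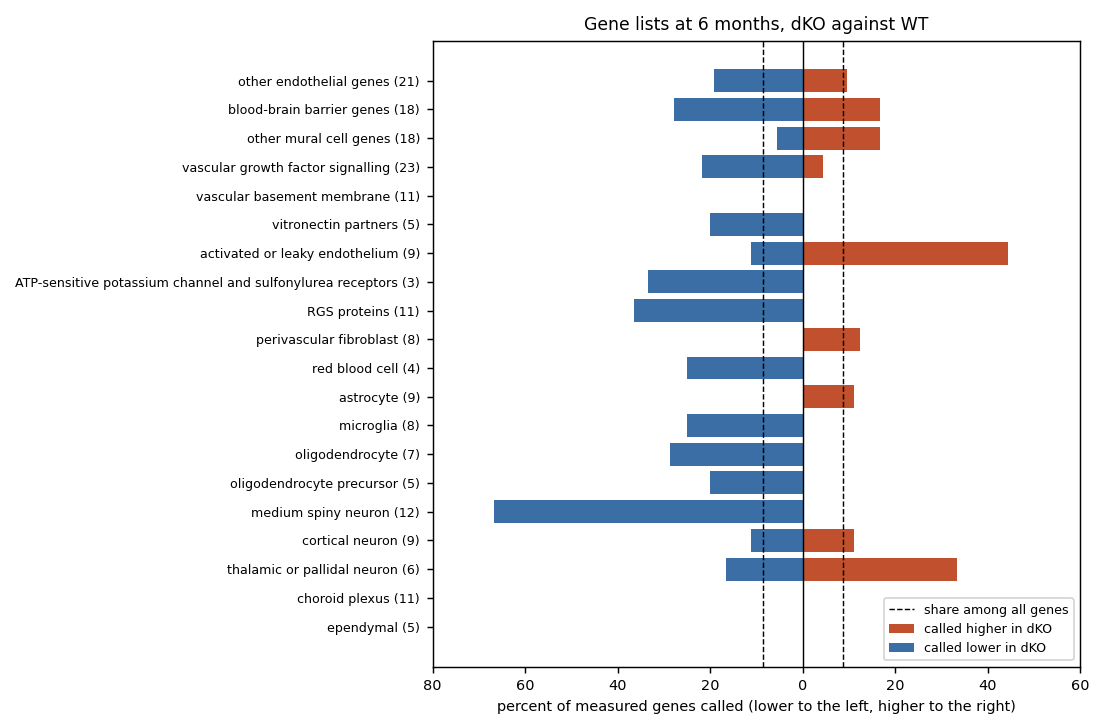
Percent of the measured genes of each list called higher (right) or lower (left) in dKO at 6 months, with dashed lines at the share of all genes called. Medium spiny neuron genes have the largest share called lower, 8 of 12, and the basement membrane, choroid plexus and ependymal lists have none in either direction.

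Markers of other cells moved at the same age, and their part in the results was not tested except by the covariates named in the closing section. Of 12 medium spiny neuron markers 8 were lower and 0 higher, with list medians from -0.90 to -0.39 over 6 dKO arrays and from 0.00 to 0.27 in WT. Of 8 microglia markers 2 were lower (medians of -0.93 to 0.09 in dKO and -0.04 to 0.28 in WT), and of 7 oligodendrocyte markers 2 (medians of -0.56 to 0.08 and -0.12 to 0.17). Cortical neuron markers ran from -2.24 to -0.07 in WT and from -1.01 to 0.34 in dKO, and with their median as a covariate 2 members, Emcn and Abcc9 1435752_s_at, were called. Perivascular fibroblast markers had 1 of 8 higher, Lum, at 2.49 ± 0.43, and medians of -0.13 to 0.41 in WT and -0.14 to 0.96 in dKO. Red blood cell markers, of which 4 of 8 were measured, had medians of 0.03 to 0.14 in WT and -0.23 to 0.03 in dKO, and Alas2, the heme synthesis enzyme of red cells, fell by 0.82 ± 0.19. Of 9 astrocyte markers 1 was higher, Aldoc at 1.29 ± 0.11, whose second probe set gave 0.13 and was not called.

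Without the low-Xist arrays of 6 months, an alternative added after the values were seen, the list counts were as follows. Other endothelial genes had 3 higher and 5 lower, barrier genes 3 and 6, other mural genes 4 and 2, growth factor genes 1 and 5, activated endothelium 3 and 1, basement membrane genes 1 and 0, and vitronectin partners 0 and 2. Of all genes, taken by their most variable probe set, 10.8% were called higher and 10.4% lower in this setting. Apold1 and Cxcl12, at 0.60 and 0.80, were then not called (adjusted p = 0.0932 and 0.079), nor were Icam2 and Alas2, at -0.39 and -0.59 (adjusted p = 0.0523 and 0.0546). Acvrl1, at -1.68, and Heyl, at 1.44, were called in this setting as well, and microglia markers had 5 of 8 lower.

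The 18 probe sets differed in how much they varied between mice of one group. Within-group SDs ran from 0.09 for Pdgfrb 1417148_at to 0.53 for Rgs5 1420941_at, which lie at percentiles 6.2 and 99.2 of all probe sets. Emcn had an SD of 0.26 and Cldn5 and Pecam1 of 0.13 and 0.12. Pearson's r of the deviations from the group means over the 23 arrays, given as a description since all pairs share the arrays and their quality, had a median of 0.44 over 17 pairs of probe sets of one gene. It was 0.25 over 15 pairs of different endothelial members, 0.32 over 44 pairs of different mural members and 0.32 over 77 pairs of an endothelial with a mural member. The medians within a class were no higher than the median between the classes. The 2 Vtn probe sets had an r of 0.92. Emcn and Rgs5 1420940_x_at had an r of 0.85, which was 0.40 over the 13 arrays of 6 weeks and 3 months.

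For each member probe set the 3 genes with the most similar deviations were listed. Emcn was nearest to Hsdl2 (r = 0.93) and Acadm (r = 0.92), Rgs5 1420941_at to Trpm7 (r = 0.95) and Pcmtd1 (r = 0.95), and Flt1 1419300_at to Kdm3b (r = 0.92). For Trpm7 the r was 0.50 over the 13 younger arrays. Most of the listed genes are not in the vascular lists above, a few are, and their share among all genes was not compared. Among those in the lists, Cldn5 was near the basement membrane collagen Col4a1 (r = 0.75, and 0.69 over the 13 arrays). Vtn 1420484_a_at was near Myl9, a smooth muscle myosin light chain (r = 0.87 and 0.80). Abcc9 1435752_s_at was near Epas1, the hypoxia-inducible factor HIF-2 alpha (r = 0.87 and 0.84). For each of these probe sets a gene outside the lists was nearer. These were Acrbp for Cldn5 (r = 0.801), Lsm6 for Vtn (r = 0.895) and Adar for Abcc9 (r = 0.873).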

How the data were processed

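Striatal RNA, isolated with Trizol LS, was biotin-labelled from 6 ug, per the labels' protocols. The submitters' processing notes name RMA, without a version, and the deposited values are on the log2 scale. Neither the array design nor the annotation release is named in the sources used here. Each probe set is centred: 87.95% hold an exact 0 on at least 1 array. The values came from the series value table, and gene symbols from the authors' normalized table, whose 21 uniquely named columns equal the value table (2 that share a name were left out). Of 20694 genes with a probe set of 1 symbol, 18344 are in the RefSeq table.

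Groups came from the genotype and title labels. All 45037 probe sets that are not array controls were fitted with limma 3.58.1 in R 4.3.3 (lmFit and eBayes, 17 residual degrees of freedom, a mean per group), and contrasts were tested two-sided. Tables and promoter counts were made in Python 3.11.15. The script was tested on simulated data. The number of arrays limits the precision. The design text speaks of biological replicates. Replicate numbers do not pair the samples. All probe sets of the 8 genes are named. From each list up to 4 called genes with the largest change are named, or the 2 largest where none was called, and for each member probe set the 3 most similar genes. The members and lists were chosen with earlier results of these data known. Alternatives covered normalization, probe set choice, filters, covariates and each array left out.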

Additional observations from a re-analysis of the deposited data

Results flagged for a closer look

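Each member probe set was examined for an array far from the others of its group, in 54 groups of 4 or 6 arrays, and 4 arrays stood out by Dixon's criterion, where chance gives about 1 in 20 groups. Flt1 1454037_a_at read 0.80 in dKO replicate 4 at 6 months, the highest of 6 arrays, and its group carries the one positive Flt1 difference of that age. Rgs5 1420942_s_at read -0.30 in WT replicate 2 at 6 months, the lowest of 4 arrays. Abcc9 1435751_at read 0.23 in WT replicate 4 at 6 months, the highest of 4. Pdgfrb 1436970_a_at read -0.44 in WT replicate 2 at 3 months, the lowest of 4. These arrays were kept in every value of the report.

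In 4 probe sets all dKO arrays lay on one side of the WT mean at one age and on the other side at another age. How often this holds among all probe sets was not counted, so the 4 are given as values only. For Cldn5 the difference was -0.40 ± 0.11 at 6 weeks and 0.08 ± 0.10 at 3 months, and for Rgs5 1417466_at 0.08 ± 0.17 and -0.22 ± 0.16. For Abcc9 1435752_s_at it was 0.15 at 6 weeks, -0.20 at 3 months and -0.53 at 6 months, and for Flt1 1454037_a_at -0.30 at 3 months and 0.29 at 6 months. The change between 6 weeks and 3 months was not tested. The changes of Abcc9 from 6 weeks to 6 months and of Flt1 from 3 to 6 months were tested with limma and were not called (adjusted p = 0.123 and 0.141).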

How the results depend on the processing

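No member difference changed direction while called under any alternative that was run. Emcn and Abcc9 1435752_s_at kept their 6-month calls in each one that tested them except the fit with only the 3 low-Xist arrays of that age (adjusted p = 0.133 and 0.0567). The 2 settings with 1 value per gene did not test that Abcc9 probe set. The 4 members called lower at 6 months became 2 with quantile normalization, with 1 probe set per gene by largest SD, with the mean of a gene's probe sets, with only the compared groups in the fit, at an adjusted p under 0.01 and with the cortical marker median as a covariate. They became 7 without the low-Xist arrays and 0 with only those, and 2 to 7 with any 1 array left out. Rgs5 1417466_at and Abcc9 1420408_a_at had adjusted p values of 0.0751 and 0.116 with quantile normalization. At 6 weeks the 0 called lower became 2 with array weights and 0 to 1 with 1 array left out (1 without dKO replicate 1), and at 3 months 1 with array weights. The array weights gave 4.47 to dKO replicate 3 at 6 weeks, the library whose Ezh1 value lay nearer to WT than to the other dKO arrays. The other dKO arrays of that age had 0.62 and 0.83. What this did to the weighted counts was not tested. The 0 called for the change from 6 weeks to 6 months became 3 with array weights, 1 with Xist and 2 with choroid plexus markers as a covariate, 4 without the low-Xist arrays and 0 to 3 with 1 array left out (3 without 6-month dKO replicate 2). For the change from 3 months the 0 became 2 with array weights, 1 with choroid plexus or red blood cell markers as a covariate, 1 without the low-Xist arrays and 0 to 1 with 1 array left out (1 without 6-month dKO replicate 2). In WT, the 3 called between 6 weeks and 6 months became 5 with quantile normalization, 6 with only those groups in the fit, 7 with array weights, 1 with Xist, 0 with Gapdh, 5 with choroid plexus and 5 with red blood cell markers as a covariate, 5 without and 1 with only the low-Xist arrays, and 2 to 5 with 1 array left out. In dKO the 7 became 3 with 1 probe set per gene by either rule, which tests 8 genes, and 6 to 7 with 1 array left out. Smaller moves of a count are left out of these lists, which are therefore not complete. Over all genotype and age comparisons rerun, 14 member calls were gained with array weights and 7 with choroid plexus markers as a covariate. With Gapdh as a covariate 5 were lost and 1 gained. The causes were not tested. Same-numbered arrays of the 2 genotypes did not deviate together (r from -0.325 to 0.137). With the replicate block 1 member was called higher at 6 months, and 3 member calls were lost over all the comparisons rerun. Alternatives for background correction, slide and scan date were not run, since the values come after RMA and the labels give neither. Centring hides which probe sets are dim.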
